A study of Mus musculus with 2 samples.

Results

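Of the 1750 genes that could be named in the liver table, 8 encode chemokines of inflammation or of lymphoid tissue, and these are described here: Ccl2, Ccl3, Ccl5, Ccl6, Ccl7, Ccl8, Ccl11 and Cxcl13. Each was taken from a row whose platform annotation gave exactly 1 gene symbol, and each of the 8 had 1 such row. In the pool from mice on parenteral nutrition (PN), 5 of them lay above their saline level and 3 below it, in a table where 50.2% of all named genes were higher and 49.8% lower by at least 1.5-fold. The 5 higher genes, Ccl2, Ccl3, Ccl5, Ccl6 and Ccl7, encode attractants of monocytes, macrophages or T cells. The 3 lower genes were Ccl8, Ccl11 and Cxcl13. Ccl8 is counted here with the monocyte and T cell attractants and was the only one of them that was lower. Ccl11 encodes the eosinophil attractant eotaxin, and Cxcl13 encodes the B cell attractant of lymphoid follicles.

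The mice were C57BL/6J, an inbred laboratory strain, aged 6 to 10 weeks, and all carried a jugular vein catheter placed on day 1 and ran on saline from day 2. From day 3 the saline group stayed on saline and kept its food, whereas the PN group was fed through the catheter alone and its food was taken away. Livers were taken on day 11, after 8 days of either infusion. RNA of 3 mice was pooled for each group and each pool was measured on 1 array, so the route of feeding and the loss of food cannot be told apart, and none of the differences has a replicate check. In bulk liver RNA, fewer cells of a type and less RNA per cell cannot be told apart.

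Values are log2 levels from RMA, an array summary that corrects background, equalises arrays and combines the probes of a probe set. A difference is the PN level minus the saline level, and a fold is 2 raised to its absolute size. The authors kept only rows that differed by at least 1.5-fold, and the smallest absolute difference among the 5082 rows was 0.585. A gene without a value is therefore not shown to be unchanged. The 8 genes were chosen by their PN minus saline values in this same table, so their differences are given as a description with no test. Of the 11 listed hepatocyte markers only Ass1, a urea cycle enzyme gene, had a value, and in a table restricted in this way the tissue label could not be checked from the other 10.

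Chemokines are small secreted proteins that draw leukocytes along a gradient and switch on their integrins through G protein-coupled receptors. In liver, resident macrophages, endothelial cells, stellate cells and stressed hepatocytes can make the inflammatory ones, which recruit monocytes and T cells. The lymphoid chemokines Cxcl13, Ccl19 and Ccl21 are made by stromal cells and arrange B and T cells in lymphoid tissue, and Ccl11 with its receptor CCR3 guides eosinophils. The roles overlap, since Ccl3, Ccl5 and Ccl7 can also act on eosinophils.

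The sequences just before the gene starts are shown for genes on either side of this division. RefSeq promoter sequences of build GRCm38.p6 were matched for 4 of the 8 genes (not for Ccl2, Ccl5, Ccl7 and Ccl11), Ccl3 and Ccl6 from the higher side and Ccl8 and Cxcl13 from the lower. The 250 bases before each RefSeq start are written 5′ to 3′ along the gene's strand, and the capitals mark matches to any of the 5 motifs searched on both strands.
Ccl3 (chr11:83649379-83649628, minus strand): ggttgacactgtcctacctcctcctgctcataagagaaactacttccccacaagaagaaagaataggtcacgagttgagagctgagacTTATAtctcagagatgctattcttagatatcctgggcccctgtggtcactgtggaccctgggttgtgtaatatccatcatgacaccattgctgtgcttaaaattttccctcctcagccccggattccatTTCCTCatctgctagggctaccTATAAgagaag
Ccl6 (chr11:83593088-83593337, minus strand): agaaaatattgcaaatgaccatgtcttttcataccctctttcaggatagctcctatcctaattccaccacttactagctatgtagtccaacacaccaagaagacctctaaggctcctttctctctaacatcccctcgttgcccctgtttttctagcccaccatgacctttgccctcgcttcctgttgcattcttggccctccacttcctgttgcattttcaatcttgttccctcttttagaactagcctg
Ccl8 (chr11:82114935-82115184, plus strand): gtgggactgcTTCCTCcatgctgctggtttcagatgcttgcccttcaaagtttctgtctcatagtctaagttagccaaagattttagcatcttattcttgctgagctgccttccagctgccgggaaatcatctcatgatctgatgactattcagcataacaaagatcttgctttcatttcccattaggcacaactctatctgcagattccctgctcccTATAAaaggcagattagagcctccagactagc
Cxcl13 (chr5:95956689-95956938, plus strand): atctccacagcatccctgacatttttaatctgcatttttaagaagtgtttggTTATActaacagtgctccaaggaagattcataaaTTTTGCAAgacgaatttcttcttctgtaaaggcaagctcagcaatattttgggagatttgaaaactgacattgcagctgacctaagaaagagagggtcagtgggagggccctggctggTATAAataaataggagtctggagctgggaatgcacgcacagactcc
The motifs were TATAA, the core of the TATA box, GGANNTTCC, a strict form of the NF-kappaB motif, TTGCNNAA for C/EBP, TGANTCA for AP-1 and GAGGAA for PU.1. On the gene's own strand TATAA lay 32 to 28 bases before the start in Ccl8, 46 to 42 in Cxcl13 and 11 to 7 in Ccl3, and it was not found in the Ccl6 window. On either strand it occurs in 22.8% of the 32817 RefSeq windows of the same length. The NF-kappaB letters, found in 3.58% of those windows, and the AP-1 letters, found in 6.75%, matched in none of the 4. A looser NF-kappaB form, GGGA and CC with 4 bases between, was tried first and is not in capitals. It occurs in 17.6% of windows and matched once, 63 to 54 bases before the start of Cxcl13. The C/EBP letters, found in 9.57% of windows, matched once, 164 to 157 bases before the start of Cxcl13, and the PU.1 letters, found in 23.3%, matched in Ccl3 and Ccl8. No matches overlapped each other, and a match describes the letters only, not a bound factor.

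Among the monocyte attractants of the CCR2 receptor, which calls monocytes out of bone marrow and into tissue, both genes with a value were higher in the PN pool. Ccl2, which encodes MCP-1, had a level of 4.77 on saline and 5.38 on PN. Its difference of 0.61, or 1.53-fold, was the smallest of the 8 and lay 0.027 above the cutoff of the table. With each array centred on its median over named genes it was 0.57, below that cutoff. Ccl7, which encodes MCP-3, stood at 4.82 on saline and 5.60 on PN, a difference of 0.79, or 1.73-fold. For scale, the median absolute difference over all named genes was 0.73. Among the 878 named genes higher in the PN pool, Ccl7 ranked 335 and Ccl2 773.

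Ccl8 belongs by sequence to the same MCP group, but in the mouse its protein acts on CCR8, a receptor of skin-homing and type 2 helper T cells. It ran opposite to Ccl2 and Ccl7, with 4.35 on saline and 3.59 on PN. The difference was -0.76, or 1.69-fold lower, and it ranked 371 among the 872 named genes lower in the PN pool. Ccl8 was dim. Its PN level lay 0.33 above 3.26, the level that serves as background here. That level is the median, over 133 genes of smell, taste and pheromone receptors with a value, of the brighter of their 2 levels, since liver is not where these receptors are known to work.

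The ligands of CCR1, a receptor on monocytes, macrophages and effector T cells, had the largest positive differences of the 8. Ccl3, which encodes the macrophage inflammatory protein MIP-1 alpha, had 3.60 on saline and 4.95 on PN. This difference of 1.35, or 2.55-fold, placed it at rank 44 of the 878 higher genes. Its saline level lay 0.33 above the background level, so the lower end of that fold rests on a dim signal, and RefSeq's gene model of Ccl4, a close relative without a value, overlaps that of Ccl3. Ccl6, a rodent chemokine of macrophages and other myeloid cells that acts on CCR1, had 5.82 on saline and 7.13 on PN. Its difference of 1.31, or 2.48-fold, ranked 47 of 878, and unlike Ccl3 it stood well above the background level in both pools. Ccl5, which encodes RANTES, a product of T cells, NK cells and macrophages that binds CCR1 and CCR3, had 5.67 and 6.73 in the saline and PN pools. The difference was 1.07, or 2.09-fold, at rank 104 of 878.

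Both genes counted here as eosinophil and B cell attractants were lower in the PN pool. Ccl11 had 5.57 on saline and 4.90 on PN. Its difference of -0.66, or 1.58-fold lower, lay 0.077 beyond the cutoff and ranked 596 of the 872 lower genes. Cxcl13, whose protein binds CXCR5 on B cells and follicular helper T cells, had 6.40 on saline and 5.18 on PN. At -1.22, or 2.33-fold lower, it had the largest negative difference of the 8 and ranked 62 of 872.

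**Figure D1:**
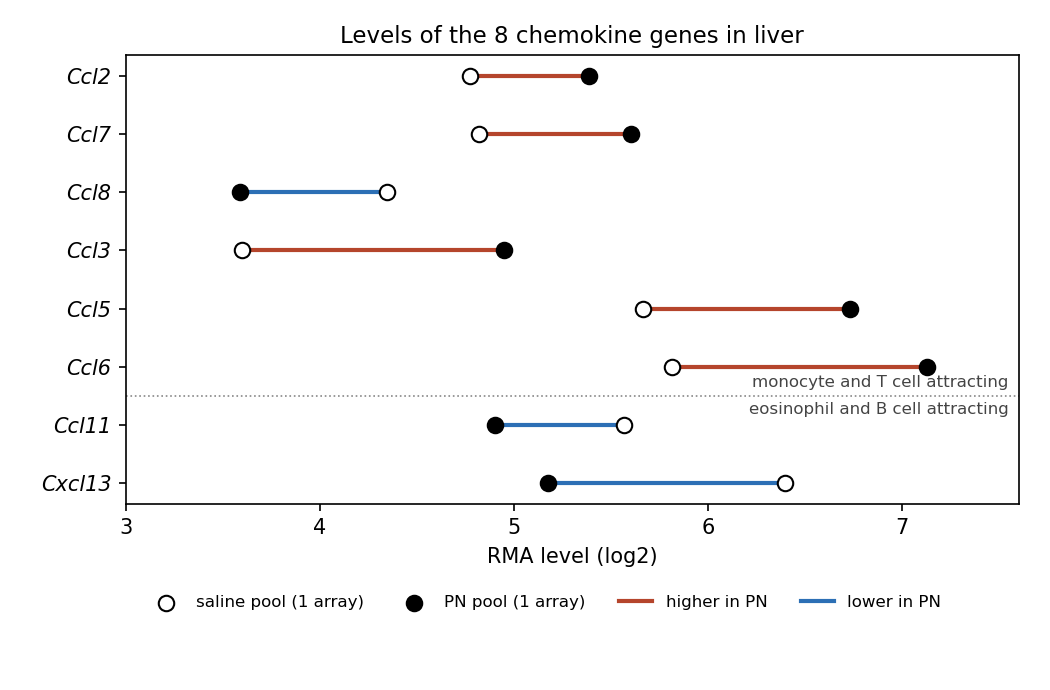
Log2 RMA levels (horizontal axis) of the 8 chemokine genes (vertical axis), with 1 open point for the saline pool and 1 filled point for the PN pool, joined by a red line where PN is higher and a blue line where it is lower. The 5 red lines belong to Ccl2, Ccl7, Ccl3, Ccl5 and Ccl6, and the 3 blue lines to Ccl8, Ccl11 and Cxcl13; with 1 array per pool there are no error bars.

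Set against each other by the cells they attract, the monocyte and T cell attracting genes and the eosinophil and B cell attracting genes lay mostly on opposite sides. In the first group 5 of 6 were higher on PN, with differences from -0.76 to 1.35 and a median of 0.93. In the second both genes were lower, at -1.22 and -0.66, with a median of -0.94. Ccl3, Ccl5 and Ccl7, which can also act on eosinophils, were counted in the first group only and were higher. The medians of the groups were 1.87 apart on the log2 scale, and Ccl8 of the first group lay between the values of the second. Rows under a 1.5-fold difference had been removed, so genes on opposite sides had to lie apart. The distance of 1.87 is thus partly set by the cutoff, and the second median rests on 2 genes. With Ccl8 counted in the second group instead, a choice made after its value was seen, the medians were 1.07 and -0.76.

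At a stricter cutoff of 2-fold, 7.6% of named genes were higher and 7.2% lower. Of the 8 chemokines, Ccl3, Ccl5 and Ccl6 were at least 2-fold higher and Cxcl13 was at least 2-fold lower. Since the genes were chosen with this contrast in view, nothing is read from these shares. Another scale is the 95th percentile of the absolute differences of the smell, taste and pheromone receptor genes. Only 3 of the 8, Ccl3, Ccl6 and Cxcl13, differed by more than that, and the others lay within it. The receptor genes had themselves passed the 1.5-fold cutoff, so this percentile is not a range of noise. By brightness, 6 of the 8 reached 5.18 in at least 1 pool, which is the median of the brighter level among named genes. Ccl3 and Ccl8 were the exceptions.

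By gene order the 7 CC chemokine genes form a pair of stretches on chromosome 11, and the division ran through the first of them. In RefSeq order that stretch is Ccl2, Ccl7, Ccl11, Ccl12, Ccl8 and Ccl1. Its neighbours Ccl2 and Ccl7 were higher in the PN pool, Ccl11 and Ccl8 were lower, and Ccl12 and Ccl1 had no value. The second stretch is Ccl5, Ccl9, Ccl6, Ccl3 and Ccl4, in which Ccl5, Ccl6 and Ccl3 were higher and the other 2 had no value. The next gene in that order, Wfdc17, which encodes a secreted protein of activated macrophages, was higher on PN by 0.59, barely past the 1.5-fold cutoff. Cxcl13 lies apart on chromosome 5, and neither of its protein-coding neighbours had a value.

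**Figure D2:**
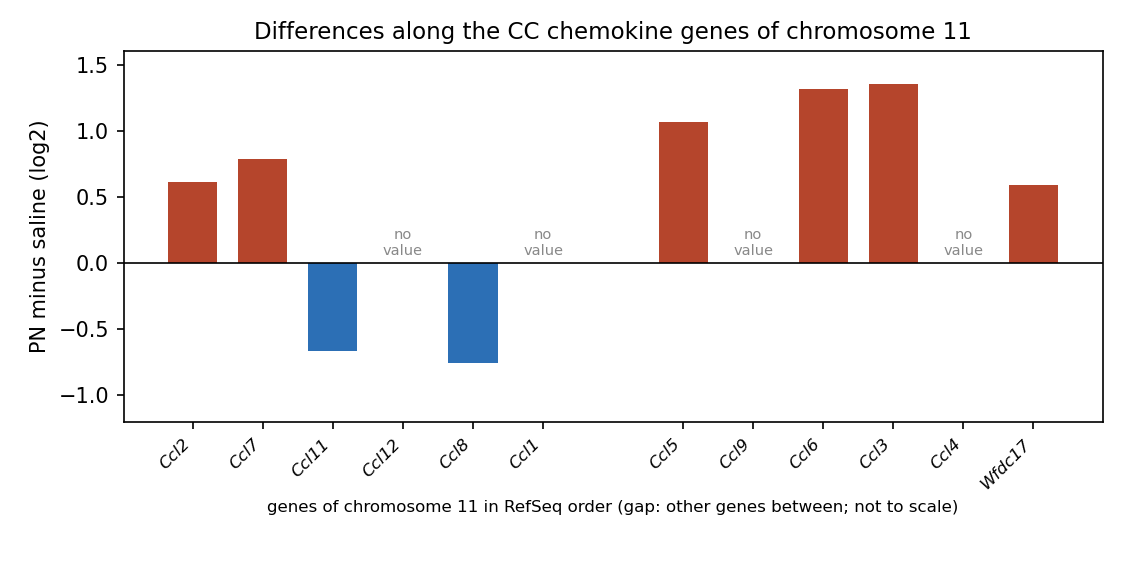
PN minus saline differences (log2, vertical axis) of the CC chemokine genes of chromosome 11 and of Wfdc17, in RefSeq gene order (horizontal axis, not to scale, with a gap where other genes lie between the stretches). Bars start at 0, red for higher and blue for lower in PN; Ccl11 and Ccl8 are the blue bars, at -0.66 and -0.76, and 4 chemokine genes are marked as having no value.

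Few other genes of the chemokine system had a value. Of the 41 chemokine ligand genes listed, 9 had a named row, the 8 above and Pf4. Pf4, the platelet chemokine CXCL4, had 4.62 on saline and 5.23 on PN, a difference of 0.61. The CXCR3 ligand genes Cxcl9, Cxcl10 and Cxcl11 and the neutrophil attractant genes Cxcl1 and Cxcl2 were among the 32 without one. None of the 24 chemokine receptor genes listed had a named row, among them Ccr2, Ccr3 and Cxcr5, so the receptors of the 8 chemokines cannot be set beside their ligands here.

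The lymphoid chemokines Ccl19 and Ccl21, which guide T cells and dendritic cells through CCR7, appear in the table only in rows shared by several gene copies. The row naming Ccl19 with 4 predicted genes had 5.96 on saline and 5.20 on PN, a difference of -0.77. Of the 3 rows naming the Ccl21 copies, a pair held identical values, 7.05 and 6.39, a difference of -0.67. The other Ccl21 row had 6.95 and 6.35, a difference of -0.60. Which copy each row measured is uncertain, and the 4 rows entered no count above. All 4 were lower in the PN pool, as Cxcl13 was. Taken as attractants of T cells, they ran opposite to 5 of the 6 monocyte and T cell attracting genes. The 4 rows were set beside Cxcl13 after their values were seen.

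Genes that act before or beside chemokine release are counted here beside the 50.2% of all named genes that were higher. Their lists were chosen with earlier results of these data known, so nothing is read from these counts. Of 22 genes of the NF-kappaB pathway, a main inducer of inflammatory chemokines, 3 had a value and all 3 were higher, with a median of 0.69. Rel, which encodes the subunit c-Rel, had 5.91 and 6.67 in the saline and PN pools. Tnfaip3, which encodes the feedback inhibitor A20, had 4.80 and 5.49, and Tlr2, a receptor for bacterial lipoproteins, had 4.91 and 5.58. Of the Toll-like receptor genes with a value, only Tlr2 was on this list. Among the others, Tlr8 and Tlr13 were higher and Tlr3 and Tlr6 lower. Of 14 leukocyte adhesion genes 4 had a value and all 4 were higher, with a median of 0.72. Vcam1, the endothelial ligand of integrin alpha 4, had 6.07 on saline and 7.15 on PN, a difference of 1.08. Its integrin partner gene Itga4 differed by 0.70, Selplg, a selectin ligand gene, by 0.74 and the leukocyte integrin gene Itgb2 by 0.62. Of 16 cytokine genes listed as inducers only Il6 had a value, at 2.94 and 2.31, both under the background level, so no fold is given for it. Tnf, Il1b, Ifng, Il4 and Il13 had none.

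Markers of several leukocyte types differed in the same direction as the 5 higher chemokines. Of 87 leukocyte markers listed 22 had a value, 21 higher on PN and 1 lower, in a table with 50.2% of named genes higher and 49.8% lower. The marker lists were chosen with earlier results of these data known, so nothing is read from this count. The median of the 22 markers was 0.72, beside 0.59 over all named genes, a value at the edge of the gap that the cutoff leaves around 0. In size their median was close to the median absolute difference over all named genes given above. Of 20 monocyte and macrophage markers 11 had a value and all 11 were higher, by 0.62 to 2.36, and their summed linear level (the sum of 2 raised to each log2 level) was 1437 on saline and 2492 on PN. The Kupffer cell markers Clec4f and Vsig4 differed by 0.62 and 0.63, and the scavenger receptor gene Marco by 2.36. Of 18 T and NK cell markers 4 had a value, at 0.60 to 0.97, with summed levels of 82.7 and 136. Only 1 of the 4, Nkg7, reached the median brighter level of named genes. Of these Cd3e, a T cell receptor subunit gene, differed most, from 3.91 to 4.88. Of 12 neutrophil markers 3 had a value, at 0.61 to 1.12, with summed levels of 81.5 and 162. Flt3, at 0.69, was the only one of 11 dendritic cell markers with a value. The neutrophil marker Csf3r, at 3.95 on saline, and Flt3, at 3.77, did not reach the median brighter level in either pool. No log2 level in the table was 0. The part of these cell types in the chemokine differences was not tested.

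Markers of the cells that Ccl11 and Cxcl13 attract, or that make Cxcl13, had few values. None of the 13 eosinophil, mast cell and basophil markers had one, and none of the 8 genes of follicular stromal cells did in a row of 1 symbol. Of 13 B cell and plasma cell markers 3 had a value and did not share a direction. Cd22, a B cell surface lectin gene, had 3.52 on saline and 4.29 on PN, and the immunoglobulin gene Ighm had 3.37 and 3.96, both from saline levels near the background level of 3.26. Mzb1, a plasma cell chaperone gene, had 5.55 and 4.91, a difference of -0.64, and was the only one of the 3 to reach the median brighter level of named genes. Their summed linear level was 68.7 on saline and 65.2 on PN. Of 12 stellate cell and fibroblast markers Lum and Tgfb1 had a value and were higher, by 0.93 and 0.81, while none of the 10 liver endothelial markers had one. The part of these cells in the lower Ccl11 and Cxcl13 was not tested.

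**Figure D3:**
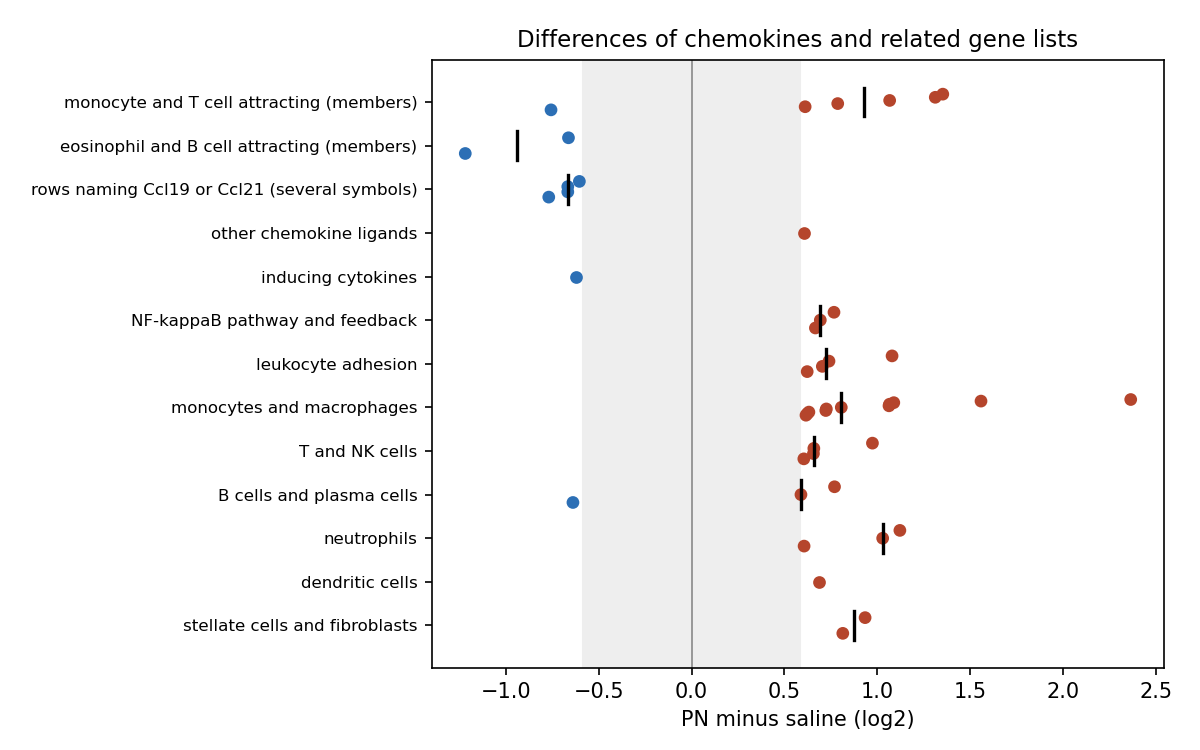
PN minus saline differences (log2, horizontal axis) of genes with a value, by group (vertical axis); each point is a gene, or a row in the third line, red for higher and blue for lower in PN, and the black tick is the median where there is more than 1 point. The grey band holds the differences under 1.5-fold that the authors removed. The chemokine groups fall on both sides of it, while all 11 monocyte and macrophage markers lie on the right.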

How the data were processed

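Liver RNA was measured on 2 Affymetrix arrays, each holding RNA of 3 mice pooled per group (saline, PN), with groups taken from the labels. Per the submitters' processing notes, the authors made the deposited log2 values with RMA in Affymetrix Expression Console 1.4.0.38. According to the design text, rows under a 1.5-fold difference had been removed, and on the table the smallest absolute difference was 0.585. The genome build is not given in the sources used here, nor are the annotation version and the arrays that RMA treated jointly.

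The platform annotation gave 1779 of the 5082 rows a single symbol, 161 rows more than 1 and 3142 rows no symbol. Symbols were updated through Entrez identifiers to RefSeq (GRCm38.p6), and averaging rows of the same symbol left 1750 named genes. Levels in both pools, the difference, counts by direction and medians were computed with Python 3.11.15 and pandas 2.3.3, and the list summary was tested on simulated data. With 1 array per group no test was possible, and the number of arrays limits the precision. A median of such differences leaves out all values under the cutoff. Promoters and motifs came from the RefSeq sequence table, and each promoter was shortened to the 250 bases before the start.

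The 8 genes and all lists were chosen with earlier results of these data known. Named genes were the 8 and, from the lists, any gene with a row of 1 symbol. No gene was named for a pattern like that of a chemokine, since 2 arrays give 1 difference per gene. Alternatives were a background floor, centring of each array, Ccl6 left out, rows of several symbols, a 2-fold cutoff and brighter genes. Moving Ccl8 and adding the Ccl19 and Ccl21 rows were chosen after seeing the data.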

Additional observations from a re-analysis of the deposited data

How the results depend on the processing

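No chemokine changed direction under the background floor or either centring. The floor moved none of the 8 differences, centring on the median of all rows moved them by 0.019 and centring on named genes by -0.039, which left 7 of 8 past 1.5-fold, with Ccl2 below it. Leaving out Ccl6 gave a median of 0.79 for the monocyte and T cell attracting genes, 1.73 above that of the others. Counting Ccl8 with the eosinophil and B cell attracting genes gave medians of 1.07 and -0.76. Adding the Ccl19 and Ccl21 rows to that group gave a median of -0.67, 1.59 below the first. The distances between medians given here are partly set by the cutoff, which removed all rows under a 1.5-fold difference. Counting these rows with the monocyte and T cell attracting genes instead, as attractants of T cells, was not tried. Nor was counting Ccl3, Ccl5 and Ccl7 with the eosinophil and B cell attracting genes. Of the listed genes other than the 8 chemokines, 32 were higher and 2 lower. With rows of several symbols 6 were lower, past 2-fold 8 were higher and 0 lower, and among brighter genes 1 was lower, as these choices add or remove genes. No paired analysis was possible because each group had 1 array. The 2 arrays, and levels of Ccl3 and Ccl8 close to the background level, limit these values.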

Other observations

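Other immune signalling genes were read by symbol family, a choice made after the values were seen. Of 12 Toll-like receptor genes in RefSeq 5 had a value, and they did not share a direction. Tlr8 and Tlr13, receptors for RNA in endosomes, were higher in the PN pool by 1.09 and 0.73, and Tlr2 by 0.67. Tlr3, the receptor for double-stranded RNA, differed by -0.69 and Tlr6, a partner of Tlr2, by -0.62. The saline level of Tlr8, 3.29, lay close to the background level of 3.26.

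Of 83 genes named as interleukins or their receptors 4 had a value. Il18bp, which encodes a secreted inhibitor of interleukin 18, had 7.19 on saline and 8.16 on PN, or 1.97-fold higher. Il21 had 3.35 on saline, close to the background level, and 3.94 on PN. Il7r, a receptor of lymphocyte survival, had 3.42 on saline, close to that level, and 2.22 on PN, under it. Of 31 TNF superfamily genes 3 had a value. Tnfrsf12a, the receptor of the cytokine TWEAK, was 1.87-fold higher and Tnfsf10, which encodes the death ligand TRAIL, 1.55-fold lower. Tnfrsf23 had 3.28 and 4.17, from a saline level at the background level, so no fold is given for it.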
